A study of Homo sapiens with 6 samples.

Results

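FACIT, anchoring and short-chain collagens were examined in IMR-90, a line of human fetal lung fibroblasts, as the 10 genes COL7A1, COL8A1, COL8A2, COL9A2, COL9A3, COL10A1, COL12A1, COL14A1, COL16A1 and COL21A1. The genes were chosen by symbol, and each was found once among the 23754 features of the table. Both groups came from IMR-90 cells carrying a Tet-pLKO-puro lentiviral vector with the sh-2 hairpin against ZNF469 and selected with puromycin. Cells of the Sh-ZNF469 group received 2 µg/mL doxycycline for 4 days (DOX+, 3 libraries), and control cells received none (DOX-, 3 libraries). The genotype label of the control group reads wild-type, whereas the methods describe the same transduced line without doxycycline, and that description is used here. Doxycycline and the hairpin were always given together, so their effects cannot be told apart in these libraries. The submitted design text calls the 3 libraries of each group technical replicates, so the p-values below measure only the spread between these libraries.

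Most collagen in connective tissue is laid down as fibrils of type I, III and V collagen. Fibril-associated collagens with interrupted triple helices (FACITs) do not form such fibrils of their own. Several of them sit on the surface of fibrils, with large non-collagenous domains projecting outward. Type XII, XIV, XVI and XXI collagen each consist of identical chains, whereas type IX collagen is assembled from the products of COL9A1, COL9A2 and COL9A3 and is known from cartilage. Type VII collagen forms the anchoring fibrils beneath epithelia. The short-chain collagens VIII and X have a C1q-like domain at the carboxyl end and build open networks, type VIII in vessel walls and in Descemet's membrane of the cornea, type X in hypertrophic cartilage.

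Libraries held 34057675 to 36120260 counts. ZNF469, the targeted gene, measured 118.7 ± 7.25 CPM in control and 80.1 ± 0.488 CPM in Sh-ZNF469 libraries (SD, n = 3 each), where CPM is the count divided by the TMM-scaled size of the library. Sh-ZNF469 replicate 2 stood apart on the first principal component of log2 CPM (32.8, the others between −12.6 and 0.524). Without it the log2 fold changes were −0.22 for COL16A1 (edgeR FDR 0.0247), −0.22 for COL7A1 (edgeR FDR 0.165) and −0.06 for COL12A1 (edgeR FDR 0.317). All 10 fibroblast markers passed the filter on low counts. Of these, 5 were called lower in Sh-ZNF469 cells by edgeR (COL1A1, COL1A2, COL3A1, DCN and LUM), where 0.715% of all features tested were. VIM, PDGFRB, PDGFRA, THY1 and S100A4 were not called, at 98.6%, 98.9%, 99.8%, 102.6% and 109.0% of their control CPM. All 6 smooth muscle markers passed that filter as well, so passing it does not tell these cell types apart. COL1A1 alone measured 15508.8 ± 401.2 CPM in control cells (SD, n = 3). Markers listed for other cell types were at 0 in all libraries for 6 of 10 epithelial genes (KRT5, KRT14, NKX2-1, SFTPC, SFTPB and SCGB1A1), 2 of 6 endothelial genes (PECAM1 and CDH5), 3 of 6 immune genes (LYZ, CD3E and MS4A1) and 2 of 9 cartilage genes (COL2A1 and CNMD). Others on these lists were counted. KRT18 had 3158 to 4096 counts per library, KRT8 522 to 646, CD68 2084 to 2357, VWF 14 to 31, and EPCAM 11 to 14 in 5 libraries and 0 in one control library, while of the cartilage list SOX9 had 1717 to 1962 and ACAN 667 to 801. The summed FPKM of 10 epithelial markers was 60.8 to 64.0 in control and 64.7 to 76.3 in Sh-ZNF469 libraries, with KRT18 means of 55.0 and 62.2. For 6 smooth muscle markers the sum was 3311.9 to 3367.4 and 3426.9 to 3631.6. Of the epithelial genes 3 were tested, all with a log2 fold change above 0, and of the 6 smooth muscle genes tested 5 were above 0 and 1 below. edgeR called 0 genes of either list (0.715% of all features lower, 0.4% higher). At an unadjusted edgeR p under 0.05, 1 epithelial and 2 smooth muscle genes were higher (7.31% of all features), and with DESeq2 0 and 2 (1.86%). The part of these markers in the results below was not tested.

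The sequence upstream of the start site is shown for the 3 genes on which the results turn most, the abundant FACIT COL12A1, the FACIT COL16A1 and the anchoring collagen COL7A1. Each run is the 250 bases before the RefSeq start on the minus strand of GRCh38.p14, printed 5′ to 3′. The windows are chr6:75206054-75206303 for COL12A1, chr1:31704018-31704267 for COL16A1 and chr3:48595330-48595579 for COL7A1. In GENCODE 44 the COL12A1 and COL16A1 genes begin further upstream than these RefSeq starts, so both windows overlap longer annotated transcripts. Capitals mark GC boxes (GGGCGG or its reverse CCGCCC), the TATA box letters (TATAAA or TTTATA) and the sequence CAGAC or its reverse GTCTG, which is part of the SMAD-binding element.
COL12A1: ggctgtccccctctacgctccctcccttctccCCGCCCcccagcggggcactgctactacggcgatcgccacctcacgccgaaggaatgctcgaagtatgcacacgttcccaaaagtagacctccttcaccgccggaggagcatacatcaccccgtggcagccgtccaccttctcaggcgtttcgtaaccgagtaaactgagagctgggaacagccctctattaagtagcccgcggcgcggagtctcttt
COL16A1: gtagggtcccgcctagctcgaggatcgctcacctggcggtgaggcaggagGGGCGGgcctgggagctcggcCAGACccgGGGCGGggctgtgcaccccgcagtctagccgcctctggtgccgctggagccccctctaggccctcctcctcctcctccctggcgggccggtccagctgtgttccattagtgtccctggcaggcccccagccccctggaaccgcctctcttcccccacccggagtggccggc
COL7A1: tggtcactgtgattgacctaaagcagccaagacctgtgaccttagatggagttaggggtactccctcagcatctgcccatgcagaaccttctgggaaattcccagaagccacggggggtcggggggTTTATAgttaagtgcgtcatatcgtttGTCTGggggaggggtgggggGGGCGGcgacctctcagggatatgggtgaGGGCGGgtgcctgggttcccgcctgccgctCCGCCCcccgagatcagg
The COL16A1 window held 2 GC boxes and 1 CAGAC match, the COL12A1 window 1 GC box, and the COL7A1 window 3 GC boxes, 1 CAGAC match and 1 match to the TATA letters, which starts 124 bases before the start site. GC content was 73.2% for COL16A1, 61.2% for COL12A1 and 60.8% for COL7A1, against a median of 58% over 34943 RefSeq promoter windows of the same length. Of those windows, 42.5% held a GC box, 38.0% a CAGAC match and 10.8% the TATA letters, and no match overlapped another in the 3 sequences shown. The matches are letters in a window and are not evidence of binding. Promoter entries matched 7 of the 10 symbols.

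FPKM, in which fragments are divided by transcript length and library size, allows levels of different genes to be compared. COL12A1 led with 131.4 ± 2.28 FPKM (SD, n = 3), followed by COL8A1 at 35.7 ± 0.238 FPKM and COL16A1 at 25.0 ± 0.664 FPKM (SD, n = 3 each). COL7A1 reached 4.27 ± 0.214 FPKM (SD, n = 3). The other genes stayed below 1 FPKM, with means of 0.543 for COL9A2, 0.429 for COL14A1, 0.304 for COL9A3, 0.168 for COL8A2 and 0.026 for COL10A1. COL21A1 had 0 counts in all 6 libraries, and a floor of 3 counts allows it up to 0.0831 to 0.0881 CPM per library, counting error only.

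Neighbours in this order were separated in every control library except COL9A2 and COL14A1, whose values overlapped. In Sh-ZNF469 cells the first 4 places were the same. COL14A1 then stood above COL9A2 and COL8A2 above COL9A3, but in both pairs the libraries overlapped. COL12A1 ranked 8th by mean FPKM among 44 collagen genes in the table in both groups, and COL8A1, COL16A1 and COL7A1 ranked 13th, 14th and 18th. Of the reads counted on the 10 genes, COL12A1 took 79.62% to 81.03% in every library.

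**Figure D1:**
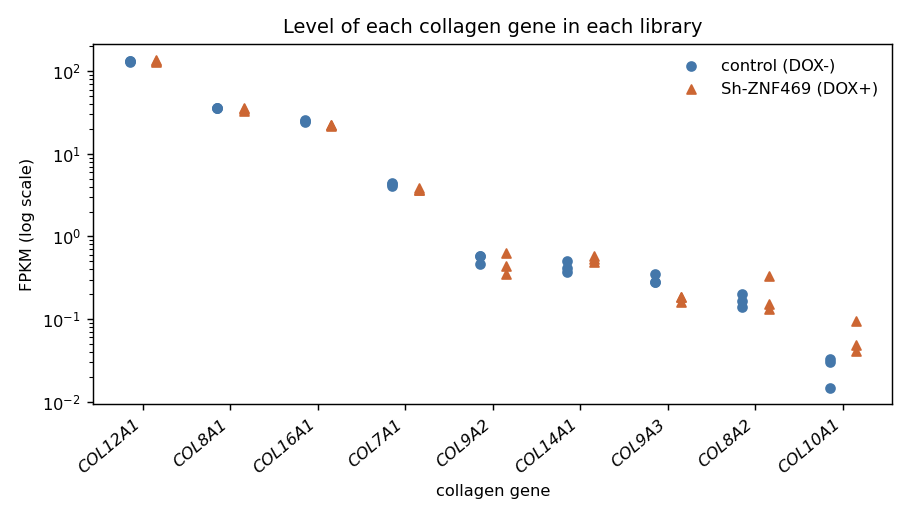
FPKM of 9 of the 10 collagen genes on a log axis, in the order of their control means, with circles for the 3 control and triangles for the 3 Sh-ZNF469 libraries. COL12A1, near 131 FPKM, lies far above the 5 genes under 1 FPKM, and COL21A1 is left out because it was at 0 in all libraries.

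To see how these collagens responded to ZNF469 knockdown, Sh-ZNF469 libraries were compared with control libraries in edgeR (quasi-likelihood F-test), and p-values were adjusted by the Benjamini-Hochberg procedure (FDR) over all 13991 features that passed the filter. In these bulk libraries fewer cells of a type and less RNA per cell cannot be told apart. COL16A1 was lower in Sh-ZNF469 cells, at 85.5% of its control CPM, and was the only one of the 10 genes with an FDR under 0.05. COL7A1 measured 85.7% of its control CPM, with an FDR of 0.0774, which did not pass. The abundant COL12A1 and COL8A1 were at 96.3% and 95.4%, with FDRs of 0.272 and 0.406. Among the low genes, COL9A3 had the lowest value, 57.7% of control on 16 to 34 counts per library, and COL14A1 the highest among those tested, 119.3%, and neither passed an FDR of 0.05.

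Thus 1 of the 8 genes tested was called lower, where 0.715% of all features tested were, and 0 were called higher by edgeR, where 0.4% of all features were. COL10A1 and COL21A1 did not pass the filter on low counts. At an unadjusted edgeR p under 0.05, 4 of the 8 were lower (7.69% of all features) and 0 higher (7.31%). DESeq2 called 2 lower (1.91% of all features) and 0 higher (1.86%), limma-voom called 1 lower (0.7%) and 0 higher (0.4%), and an FDR under 0.1 in edgeR gave 2 lower (1.37%). COL14A1, COL8A2, COL9A2 and COL9A3 had no FDR in DESeq2, so it could call none of these. The DESeq2 shares are nevertheless over all 13991 features. Removing the trend of counts on gene length gave 3 lower (0.708%) and 0 higher (0.3%). The replicate number as a block gave 1 lower (1.12%) and 0 higher (0.965%), and both together gave 3 lower (1.36%) and 0 higher (0.972%). The median log2 fold change of the 8 genes was −0.15, against −0.0019 for all features tested, with 7 values below 0 and 1 above.

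The FACITs came first. COL16A1 (ENSG00000084636, chromosome 1 of GRCh38 from 31652263 to 31704319, 71 exons in its reference transcript) measured 159.7, 152.0 and 157.7 CPM in control replicates 1, 2 and 3 and 135.8, 132.8 and 132.8 CPM in Sh-ZNF469 replicates 1, 2 and 3. Every Sh-ZNF469 library was below every control library. Its log2 fold change was −0.23 (SE 0.0381, 95% interval −0.31 to −0.14, FDR = 0.0099 from edgeR's test, two-sided exact permutation p = 0.1, and no smaller value can be had from 3 and 3 libraries). Type XVI collagen, its product, is found near the surface of cells and of fibrils in several tissues. The call was lost without control replicate 1 (edgeR FDR 0.0775), control replicate 3 (0.054) or Sh-ZNF469 replicate 1 (0.0628), and on FPKM values (limma FDR 0.169). COL16A1 shares 117 exonic bases with the antisense gene PEF1-AS1, whose reads cannot be told apart without strand.

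COL12A1 (ENSG00000111799, chromosome 6 from 75084326 to 75206267, 66 exons), whose product is a major FACIT of tendon, ligament and wound matrix, was counted 56254 to 57385 times in each library. Its CPM values were 1661.0, 1631.4 and 1638.0 in control replicates 1, 2 and 3 and 1587.8, 1600.3 and 1557.6 in Sh-ZNF469 replicates 1, 2 and 3. The groups did not overlap, with means of 1643.5 ± 15.5 CPM in control and 1581.9 ± 22.0 CPM in Sh-ZNF469 libraries (SD, n = 3 each). The log2 fold change was −0.06 (SE 0.0225, 95% interval −0.10 to −0.01, edgeR FDR = 0.272). That interval puts COL12A1 between 93.1% and 99.6% of its control level. On FPKM the groups overlapped, at 131.4 ± 2.28 in control and 132.0 ± 3.21 in Sh-ZNF469 libraries (SD, n = 3 each), and with the trend of counts on gene length removed COL12A1 passed at a log2 fold change of −0.11 (edgeR FDR = 0.0197).

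COL14A1 (ENSG00000187955, chromosome 8 from 120059780 to 120373573, 48 exons), the closest relative of COL12A1 among the FACITs, was a low gene here. It had 123, 104 and 94 counts in the control libraries and 135, 137 and 124 in the Sh-ZNF469 libraries. In CPM these values were 3.63, 2.96 and 2.69 against 3.78, 3.86 and 3.42, so control replicate 1 lay within the Sh-ZNF469 range. The log2 fold change of 0.25 (SE 0.165, 95% interval −0.10 to 0.61) had an edgeR FDR of 0.499. It was 0.39 without control replicate 1, 0.16 without control replicate 3 and 0.11 on log2(FPKM + 1).

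Type IX collagen was represented by few reads and not by all of its chains. COL9A2 (ENSG00000049089, chromosome 1 from 40300489 to 40317813) had 63, 52 and 66 counts in control and 40, 48 and 69 in Sh-ZNF469 libraries. The groups overlapped (log2 fold change −0.25, SE 0.252, 95% interval −0.80 to 0.29, edgeR FDR = 0.684). The log2 fold change was −0.49 without Sh-ZNF469 replicate 3 and −0.10 without Sh-ZNF469 replicate 1. COL9A3 (ENSG00000092758, chromosome 20 from 62816244 to 62841159) had 27, 34 and 28 counts in control and 18, 16 and 19 in Sh-ZNF469 libraries, with no overlap. Its log2 fold change of −0.79 carried an SE of 0.331 (95% interval −1.51 to −0.07, edgeR FDR = 0.286). COL9A3 shares 155 exonic bases with TCFL5 on the opposite strand, which was counted 421 to 497 times per library. COL9A1, which encodes the remaining chain, had 0 counts in all libraries. Of the other FACIT genes, COL20A1 and COL22A1 were at 0 throughout and COL19A1 had 4 counts in a single control library.

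COL7A1 (ENSG00000114270, chromosome 3 from 48564073 to 48595329, 119 exons) is made by keratinocytes and fibroblasts and forms anchoring fibrils. It measured 40.6, 38.9 and 42.9 CPM in control replicates 1, 2 and 3 and 33.8, 35.1 and 36.1 CPM in Sh-ZNF469 replicates 1, 2 and 3. As for COL16A1, all Sh-ZNF469 libraries were below all control libraries. The log2 fold change was −0.22 (SE 0.0548, 95% interval −0.34 to −0.10, edgeR FDR = 0.0774, exact permutation p = 0.1). COL7A1 passed an FDR of 0.05 with DESeq2 (0.0254) and with the length trend removed (edgeR, 0.0387). Of the anchoring complex around type VII collagen, 8 of 14 genes were tested and 0 passed in edgeR's, DESeq2's or limma-voom's test. At an unadjusted edgeR p under 0.05, 1 was lower (7.69% of all features) and 1 higher (7.31%).

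The 2 genes of type VIII collagen differed widely in level. COL8A1 (ENSG00000144810, chromosome 3 from 99638475 to 99799226, 4 exons) measured 212.5, 212.6 and 212.0 CPM in control replicates 1, 2 and 3 and 195.9, 207.9 and 204.1 CPM in Sh-ZNF469 replicates 1, 2 and 3. The Sh-ZNF469 libraries were all lower in CPM, with an SD of 6.14 CPM against 0.288 CPM among the control libraries. On FPKM the groups overlapped, at 35.7 ± 0.238 in control and 34.5 ± 1.29 in Sh-ZNF469 libraries (SD, n = 3 each). The log2 fold change was −0.07 (SE 0.0363, 95% interval −0.15 to 0.01, edgeR FDR = 0.406). COL8A2 (ENSG00000171812, chromosome 1 from 36095239 to 36125222, 4 exons) had 29, 26 and 37 counts in control and 27, 24 and 44 in Sh-ZNF469 libraries, and its log2 fold change of −0.0029 had a 95% interval from −0.72 to 0.72 (edgeR FDR = 0.998). By FPKM, COL8A1 exceeded COL8A2 by 177.9 to 255.7 times in control libraries and by 106.3 to 265.8 times in Sh-ZNF469 libraries.

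COL10A1 (ENSG00000123500, chromosome 6 from 116118909 to 116158747), the type X collagen of hypertrophic cartilage, was near the limit of detection. It had 4, 2 and 5 counts in control and 7, 6 and 7 in Sh-ZNF469 libraries. The groups did not overlap, and the ratio of the summed counts, 20 against 11, was 1.79 after scaling to depth, with an exact 95% interval from 0.816 to 4.13 that covers counting error only. Without the filter on low counts its log2 fold change was 0.79 (SE 0.978, edgeR FDR = 0.772). COL10A1 lies within NT5DC1, a gene on the opposite strand, with which it shares 0 exonic bases and which had 553 to 718 counts per library.

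**Figure D2:**
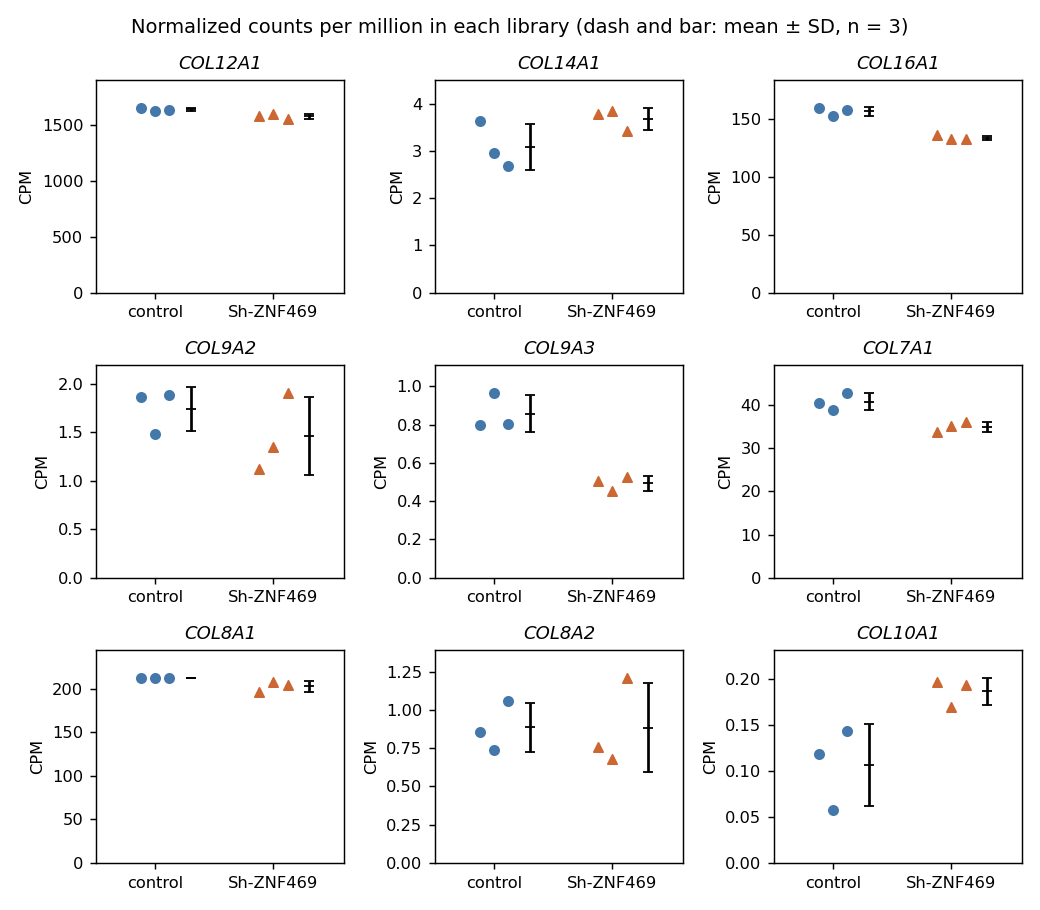
Normalized CPM of 9 collagen genes in each library, on linear axes that start at 0, with circles for control and triangles for Sh-ZNF469 libraries and the mean ± SD of 3 libraries beside them. COL16A1 and COL7A1 are separated, with Sh-ZNF469 means at 85.5% and 85.7% of control. COL12A1 (1643.5 against 1581.9 CPM) and COL8A1 are separated too, with means closer to control, at 96.3% and 95.4%, and COL14A1, COL9A2 and COL8A2 overlap. On few counts, COL9A3 (0.856 against 0.493 CPM) is also separated downward and COL10A1 (0.106 against 0.186 CPM) upward.

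Across the 8 genes tested, the groups did not overlap in CPM for COL7A1, COL8A1, COL9A3, COL12A1 and COL16A1, all lower in Sh-ZNF469 cells. That is 5 of 8, where 10.6% of all features tested were separated in that direction, and 0 of 8 were separated upward, where 9.73% of all features were (20.3% in either direction). For COL12A1 and COL8A1 the separation depended on the TMM scaling of CPM, because on FPKM the groups overlapped for both. As a share of unscaled counts, COL12A1 took 0.162% in control replicates 2 and 3 and also in Sh-ZNF469 replicate 2. The log2 ratio of COL7A1 to COL16A1 counts within a library was −1.94 ± 0.054 in control and −1.94 ± 0.0651 in Sh-ZNF469 libraries (SD, n = 3 each, exact permutation p = 1). The log2 ratio of COL16A1 to COL12A1 went from −3.39 ± 0.0268 to −3.56 ± 0.0239 (SD, n = 3 each) and that of COL7A1 to COL12A1 from −5.33 ± 0.0702 to −5.50 ± 0.0624 (SD, n = 3 each), with no overlap between groups in either. The exact permutation p was 0.1 for both and 0.15 after adjustment over these 3 pairs, which were chosen after the values had been seen.

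The levels of COL12A1, COL14A1 and COL16A1 were also set against COL1A1, which encodes the main chain of type I collagen. COL1A1 fell from 15508.8 ± 401.2 to 9609.9 ± 276.9 CPM (SD, n = 3 each, log2 fold change −0.69, edgeR FDR = 1.66e-09). Per length, COL12A1 amounted to 6.35%, 6.47% and 6.16% of the COL1A1 FPKM in control replicates 1, 2 and 3 and to 9.65%, 10.2% and 10.1% in Sh-ZNF469 replicates 1, 2 and 3. All 3 values after knockdown were above all 3 control values. In counts the log2 ratio of COL12A1 to COL1A1 differed by 0.64 between the groups, that of COL16A1 to COL1A1 by 0.46 and that of COL14A1 to COL1A1 by 0.95, each higher in all Sh-ZNF469 libraries. The lower share of COL1A1 is common to these 3 ratios. COL16A1 amounted to 1.19% to 1.22% of the COL1A1 FPKM in control and 1.64% to 1.72% in Sh-ZNF469 libraries, although COL16A1 itself was lower in the latter.

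Other pairs compared chains of one type or of one family. The log2 ratio of COL12A1 to COL14A1 was lower by 0.32 in Sh-ZNF469 libraries, without overlap (9.06 ± 0.208 in control and 8.74 ± 0.0732, SD, n = 3 each). For COL8A1 to COL8A2 the groups overlapped (7.90 ± 0.26 against 7.87 ± 0.442, SD, n = 3 each, exact permutation p = 1), as they did for COL9A3 to COL9A2 (−1.01 ± 0.352 against −1.51 ± 0.354, SD, n = 3 each, exact permutation p = 0.3). Over these 6 ratios the exact two-sided permutation p was 0.1 for the 4 without overlap, and 0.15 after Benjamini-Hochberg adjustment, so none passed 0.05 and with 3 libraries per group none could.

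**Figure D3:**
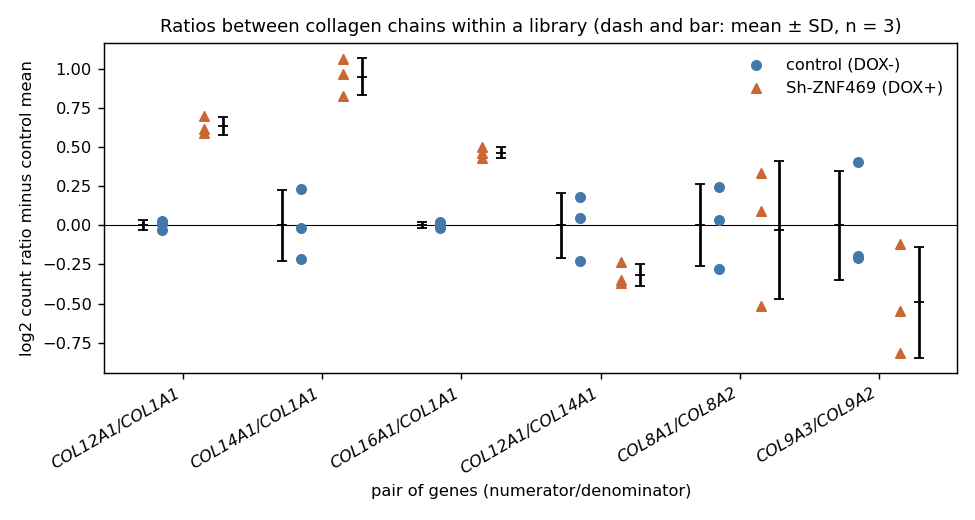
Log2 ratio of the counts of 2 collagen genes within each library, minus the mean of the control libraries, with circles for control and triangles for Sh-ZNF469 libraries and the mean ± SD of 3 libraries. The 3 ratios to COL1A1 are higher in all Sh-ZNF469 libraries, by 0.46 to 0.95, whereas COL8A1/COL8A2 and COL9A3/COL9A2 overlap between the groups.

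The genes of the fibrillar collagens were counted in the same way. Of 11 fibrillar genes, 10 were tested and 4 passed an FDR of 0.05 with lower values, COL1A1, COL1A2 (log2 fold change −0.50), COL3A1 (−0.50) and COL5A2 (−0.34), and 6 did not pass. Of 19 other collagen genes, 11 were tested and 4 passed with lower values, COL15A1 (−0.47), COL6A1 (−0.21), COL4A1 (−0.13) and COL6A3 (−0.12). Over all features tested, edgeR called 0.715% lower. No collagen gene of the 29 tested was called higher by edgeR (0.4% of all features), DESeq2 (1.86%) or limma-voom (0.4%). At an unadjusted edgeR p under 0.05, 0 were higher, where 7.31% of all features were. DESeq2 gave no FDR for some low genes, COL14A1 among them, and could not call these. The median log2 fold changes were −0.19 for the fibrillar and −0.091 for the other collagens. Summed over the fibrillar genes, FPKM was 4031.8 to 4149.8 in control and 2831.1 to 2861.6 in Sh-ZNF469 libraries, while the sum over the FACIT, anchoring and short-chain genes was 195.9 to 201.2 and 188.9 to 197.5. These genes therefore made up 3.02% to 3.10% of all collagen FPKM in control libraries and 3.73% to 3.87% in Sh-ZNF469 libraries.

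**Figure D4:**
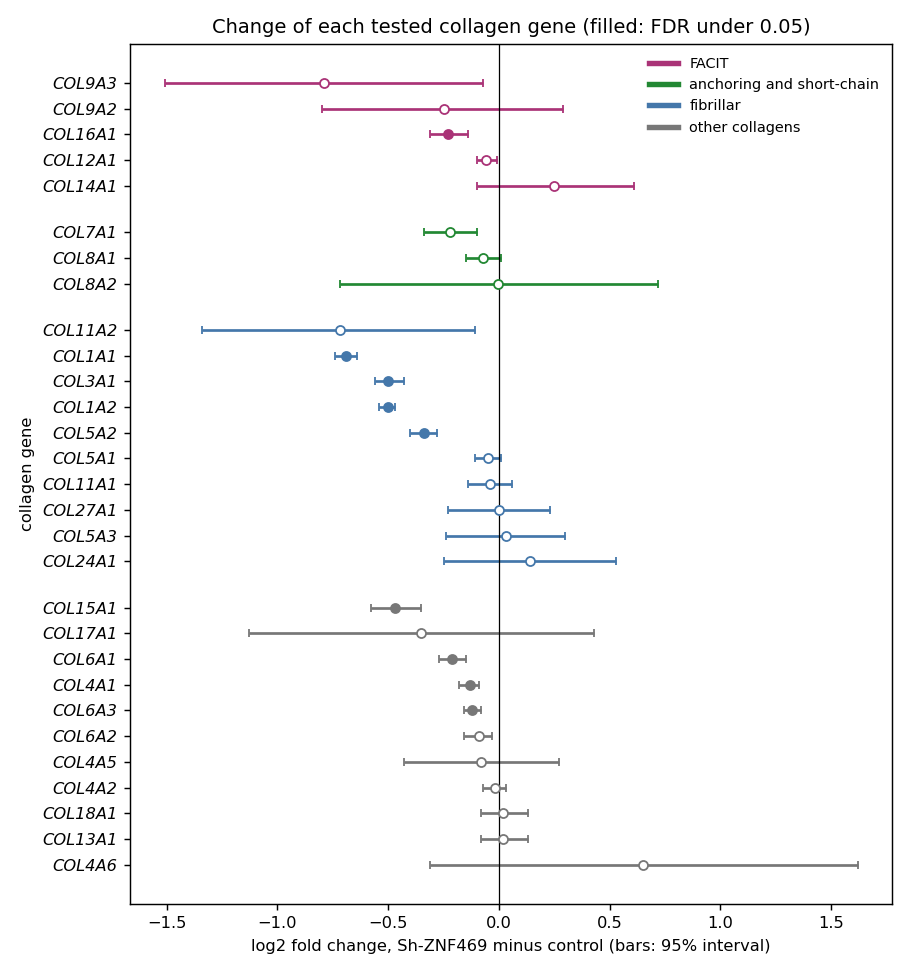
Log2 fold change (Sh-ZNF469 minus control) of the 29 collagen genes tested, with 95% intervals, grouped by class and with filled points for an FDR under 0.05 in edgeR's test. COL16A1 at −0.23 is the filled point among the FACITs, COL12A1 has a short interval close to 0, and COL1A1 at −0.69 is the lowest filled point of all.

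Genes whose products act with these collagens were counted in lists. Among 17 genes of the fibril surface, 12 were tested. In edgeR, 2 passed an FDR of 0.05 with lower values (0.715% of all features tested) and 2 with higher values (0.4%). DCN, a proteoglycan that binds fibrils and the non-collagenous part of FACITs, fell by 0.18 on the log2 scale (edgeR FDR = 0.00557), and LUM fell by 0.22 (edgeR FDR = 0.0499). POSTN, a matrix protein of remodelling tissue, rose by 0.60 (edgeR FDR = 0.00595) and TNC, which encodes tenascin-C, rose by 0.15 (edgeR FDR = 0.0376). All 20 genes for collagen hydroxylation, glycosylation, folding and export were tested, and 1 passed in each direction (0.715% of all features lower, 0.4% higher). DESeq2 called 1 lower (1.91%) and 3 higher (1.86%), and limma-voom called 1 lower (0.7%) and 1 higher (0.4%). At an unadjusted edgeR p under 0.05, 2 were lower (7.69% of all features) and 3 higher (7.31%). The 2 edgeR calls were the collagen chaperone SERPINH1 (log2 fold change −0.18, edgeR FDR = 0.00629) and the lysyl hydroxylase PLOD2 (0.25, edgeR FDR = 0.0325). Of 9 collagen receptors, 8 were tested and 1 was called lower, where 0.715% of all features tested were. It was ITGA2, a collagen-binding integrin chain (−0.33, edgeR FDR = 0.00269). The medians of these lists were 0.019, 0.033 and −0.024.

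**Figure D5:**
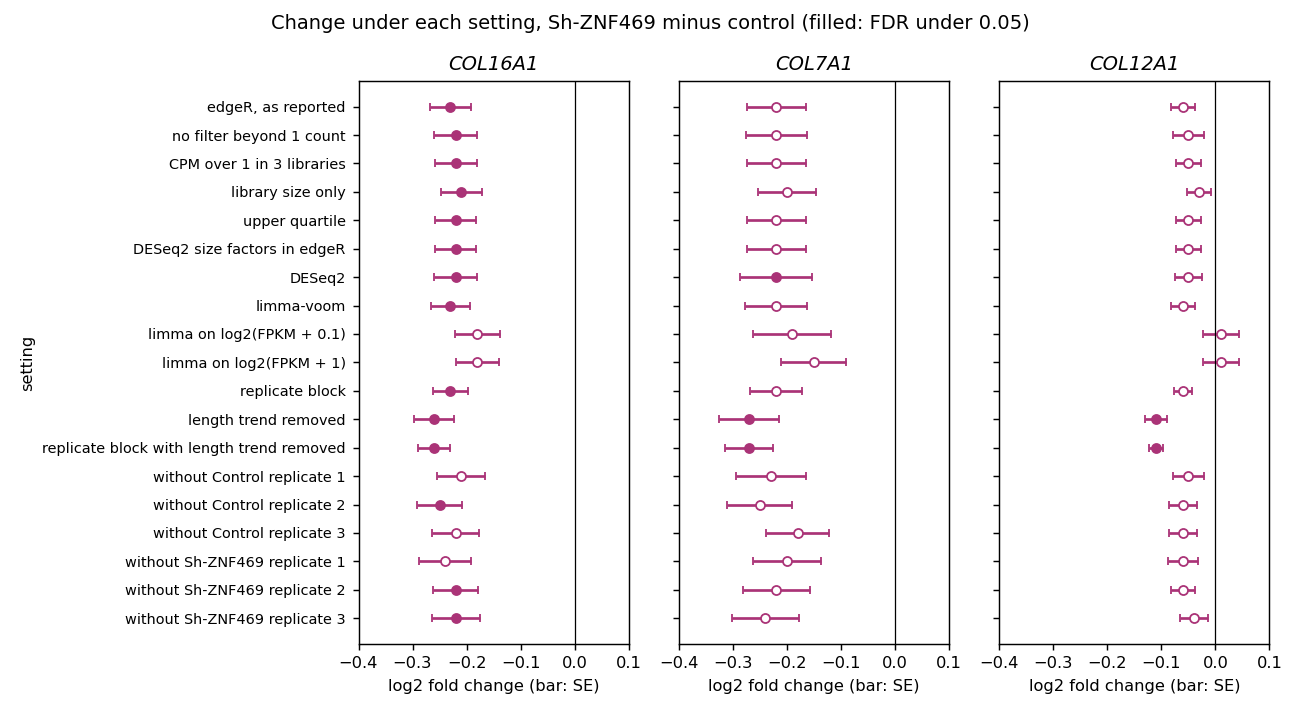
Log2 fold change with its standard error for COL16A1, COL7A1 and COL12A1 under each way of processing the counts or FPKM values, with filled points for an FDR under 0.05. COL16A1 stays between −0.26 and −0.18 and loses its call in 5 of 18 alternatives, COL7A1 gains one in 3, and COL12A1 lies between −0.11 and 0.01.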

How the data were processed

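RNA of 6 libraries (3 control, 3 Sh-ZNF469) was poly(A)-selected and sequenced as pairs with a read length of 150 bp. HISAT2 and StringTie are the tools, and GRCh38 the genome, that the authors name. The versions, the annotation release, the counting step and its strand setting are not given in the sources used here. The deposited counts are whole numbers per gene without normalization, and the deposited FPKM values are scaled by transcript length and library size. The table held 23754 features after 17 stray lines were dropped. Unannotated loci took 0.938% to 0.996% of the counts.

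Titles gave each library its group and replicate number. Counts were fitted with edgeR 4.0.16 in R 4.3.3 (filterByExpr with a minimum count of 10, TMM, quasi-likelihood test, Benjamini-Hochberg FDR, 13991 features). The SE was computed as the size of the log2 fold change over √F. Ratios used counts plus 0.5 and exact two-sided permutation tests over libraries. DESeq2 1.42.0, limma 3.58.1 on voom values and on log2(FPKM + 0.1) or log2(FPKM + 1), other filters and scalings, a length trend removed per library (lowess span 0.3, on the length implied by counts and FPKM), the replicate number as a block and each library left out were the alternatives. The scripts were tested on simulated counts. Coordinates, exons (MANE Select transcripts) and overlaps came from GENCODE 44 (the deposited table names no release), and promoter sequences from RefSeq on GRCh38.p14.

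The genes described and the lists were chosen with earlier results of these data known. Named genes are the 10 collagens, ZNF469, COL1A1 and, per list, up to 2 genes with the smallest p past an FDR of 0.05. COL3A1, COL5A2, COL4A1, COL6A3, LUM, TNC and the cell type markers and other FACIT genes given by name were named after their values were seen. Chi-square over degrees of freedom was 4.65 to 8.47 between libraries within a group, so no library duplicated another. With these depths, sampling error is small for COL12A1, COL8A1 and COL16A1 and limits the genes under 150 counts.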

Additional observations from a re-analysis of the deposited data

How the results depend on the processing

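COL16A1 kept its direction in all 18 alternatives and its FDR under 0.05 in 13. It lost the call on FPKM with either pseudocount (log2 fold change −0.18, limma FDR 0.169 for both) and in 3 of the 6 leave-one-out fits (control replicate 1, control replicate 3 or Sh-ZNF469 replicate 1), over which its log2 fold change ranged from −0.25 to −0.21. The count of the 10 genes called lower, 1 as reported, was therefore 0 on FPKM with either pseudocount and 0 to 1 with a library left out. It was 2 with DESeq2 (1.91% of all features called lower) and 2 at an FDR under 0.1 (1.37%), in both cases COL16A1 and COL7A1. It was 3 with the length trend removed (0.708%) and 3 with that trend removed and the replicate block (1.36%), where COL12A1 (−0.11 in both, FDR 0.0197 and 0.00478) and COL7A1 (−0.27 in both, FDR 0.0387 and 0.0158) joined. COL7A1 was −0.22 with DESeq2. The count called higher was 0 in all alternatives, but DESeq2 gave no FDR for COL14A1 and so could not have called it. COL12A1 was 0.01 on FPKM with either pseudocount and −0.03 with library size scaling. COL8A1, −0.07 as reported, was −0.04 without Sh-ZNF469 replicate 1. On log2(FPKM + 1), which understates changes of low genes, COL9A3 was −0.15 and COL9A2 −0.07. The sign of COL8A2 turned with library size scaling (0.02), upper-quartile scaling (0.0012) and FPKM (0.13 and 0.04 with pseudocounts of 0.1 and 1), and over the libraries left out it ranged from −0.30 to 0.16. The log2 ratio of COL8A1 to COL8A2 ranged from −0.22 to 0.21 over the libraries left out. The other 5 ratios kept their sign in all 9 alternatives. The median of the genes tested, −0.15 as reported, was −0.07 without the filter on low counts, which brings in COL10A1, −0.06 on log2(FPKM + 1) and −0.23 to −0.08 over the libraries left out, and −0.23 is the value without Sh-ZNF469 replicate 3. Over all features, 100 were called lower and 56 higher as reported, 267 and 260 with DESeq2, 163 and 127 without the filter, 77 and 88 with library size scaling, 25 and 6 on FPKM, and 54 to 92 and 20 to 69 with a library left out. The count of other collagens called lower, 4 as reported, was 0 on FPKM and 2 without control replicate 1 or without Sh-ZNF469 replicate 1. The replicate numbers gave correlations of −0.0241, −0.0352 and 0.0363 between same-numbered libraries, so no large shared shift was seen. Whether same-numbered libraries were handled together is not stated, and these correlations cannot decide it. With the replicate block alone, 157 features were called lower and 135 higher, the log2 fold change of COL16A1 was −0.23 (FDR 0.0101) and that of COL7A1 −0.22 (FDR 0.0517). The fits on FPKM did not include COL10A1, and the CPM filter left out COL8A2 and COL9A3. DESeq2 gave a log2 fold change but no FDR for COL14A1, COL8A2, COL9A2 and COL9A3.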

Other observations

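Counts and FPKM of one gene imply a gene length, as the count divided by FPKM and by library depth, and this length differed between libraries for some of these collagens. For COL12A1 it was 12.35, 12.37 and 12.52 kb in control replicates 1, 2 and 3 and 12.40, 12.28 and 11.56 kb in Sh-ZNF469 replicates 1, 2 and 3, so Sh-ZNF469 replicate 3 had the shortest. The highest value was 1.08 times the lowest, against a median of 1.04 and a 95th percentile of 1.29 over 9959 features with at least 200 counts in each library. For COL8A2 the implied length was 5.08 to 5.31 kb in 5 libraries and 3.70 kb in Sh-ZNF469 replicate 3, and for COL10A1 it was 3.85 to 4.27 kb in 5 libraries and 2.08 kb in Sh-ZNF469 replicate 1. COL8A1 (5.84 to 5.97 kb), COL9A3 (2.76 to 2.84 kb) and COL16A1 (6.06 to 6.22 kb) varied little. The FPKM of COL8A2 in Sh-ZNF469 replicate 3, 0.329 against 0.134 to 0.201 in the other libraries, and that of COL10A1 in Sh-ZNF469 replicate 1, 0.0946 against 0.0147 to 0.0489, are the values that go with these short lengths.

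Some genes of other tissues in which these collagens are known were measured in the fibroblasts as well. SOX9, a transcription factor of cartilage, was counted 1717 to 1962 times per library, ACAN, the cartilage proteoglycan aggrecan, 667 to 801 times, and MATN3 174 to 287 times, while COL2A1 had 0 counts in all 6 libraries. Of the 9 cartilage genes listed, 5 were tested, and 0 passed an FDR of 0.05 in edgeR's, DESeq2's or limma-voom's test. At an unadjusted edgeR p under 0.05, 1 was lower, where 7.69% of all features were. The summed FPKM of the 9 genes is given next. Their summed FPKM was 18.1 to 19.6 in control and 17.9 to 18.9 in Sh-ZNF469 libraries.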
